A study of Homo sapiens with 24 samples.

Results

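The 10 genes CHAF1A, CHAF1B, ASF1A, ASF1B, NASP, HELLS, UHRF1, DNMT1, EZH2 and SUV39H1 encode proteins that package newly copied DNA into chromatin and restore its methylation marks. They were taken by symbol from a microarray table of 25161 gene symbols, in which each of the 10 had a single row, and they were followed through all 8 groups of the study. The groups were the established B-cell lymphoma lines SU-DHL-4 (diffuse large B-cell lymphoma) and DG-75 (Burkitt lymphoma), each kept for 72 h with the solvent DMSO, with 1 µM Entospletinib (Ento), with 0.01 µM AZD5153 (AZD) or with both inhibitors (Ento+AZD). Every group held 3 Clariom D Human arrays, 24 in all. Entospletinib blocks the kinase SYK, which acts below the B-cell receptor, and AZD5153 binds BET proteins, which read acetylated histones. The comparisons asked whether the expression of the chromatin assembly genes differed between the inhibitors, their combination and DMSO, and whether the lines differed in this.

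During S phase the histones of the parental chromatin are shared between the daughter strands, and new histones have to fill the gaps. ASF1A and ASF1B carry new H3-H4 dimers, NASP keeps a reserve of soluble H3-H4, and chromatin assembly factor 1 (CAF-1, with the subunits CHAF1A, CHAF1B and RBBP4) places the histones on DNA behind the replication fork. DNA methylation is copied at the same time: UHRF1 recognises hemimethylated CpG sites and recruits the methyltransferase DNMT1, while the remodeller HELLS, with CDCA7, opens chromatin for methylation. EZH2 is the catalytic subunit of the Polycomb complex PRC2, which methylates H3K27, and SUV39H1 trimethylates H3K9 in heterochromatin. In germinal-centre B cells, to which both lymphoma types are related, EZH2 is known for its high expression.

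All values are log2 expression after robust multi-array average (RMA) normalization, so that a log2 change of -1 is a fall to 50% of the signal. Over all rows, arrays of the same group had correlations of 0.98 to 0.99, and the median of an array lay between 4.89 and 5.14. As a check of the labels, CD79A lay between 11.21 and 12.43 and PAX5 between 7.90 and 8.88 in the 24 arrays, whereas the T-cell markers CD3D, CD3E, CD3G and CD2 stayed between 1.24 and 4.72. Of the epithelial markers EPCAM, CDH1 and KRT18 lay between 1.31 and 4.51 and KRT8 between 6.77 and 7.50, and the table has no detection value. Of the B-cell markers, CD79B was called higher under Ento+AZD in DG-75 (log2 change 1.03, limma adjusted p = 0.0227). The array of SU-DHL-4 Ento+AZD replicate 2 stood apart for the chromatin assembly genes: their mean was 6.92 there, against 7.79 and 8.07 in replicates 1 and 3. In SU-DHL-4, replicate 2 was also the lowest of the Ento group, at 7.83 against 8.50 and 8.78, and of the AZD group, at 7.76 against 7.95 and 8.32, but not of the DMSO group, at 8.41 against 8.23 and 8.71. The SU-DHL-4 results for Ento+AZD against DMSO that passed the adjusted p threshold are also given without the Ento+AZD array.

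Under the combination CHAF1B was called lower in both lines and UHRF1 in SU-DHL-4. A gene was called when its limma p-value was below 0.05 after Benjamini-Hochberg adjustment across the 25575 rows and its absolute log2 change exceeded 1. In SU-DHL-4, 2 of the 10 genes were called lower under Ento+AZD against DMSO, where 1.09% of all rows were called lower, and 5 of the 10 had an adjusted p below 0.05 without the fold minimum, where the share of all rows was 2.06%. In DG-75, 1 of the 10 was called lower, with 0.708% of all rows called lower, and again 5 of the 10 passed without the fold minimum, against 1.87% of rows. These counts without the fold minimum depended on single arrays and fell to 0 to 4 in the fits that left out arrays, in each line. The SU-DHL-4 calls also needed the replicate number in the fit, without which CHAF1B and UHRF1 had limma adjusted p-values of 0.0995 and 0.187 there and 0 of the 10 genes passed. In DG-75 the call of CHAF1B held without it, and 7 of the 10 genes passed the adjusted p threshold. The median log2 change of the 10 genes was -0.90 for SU-DHL-4 and -0.70 for DG-75, and the medians of all rows were -0.08 and -0.07. The SU-DHL-4 median was -0.66 without Ento+AZD replicate 2 and -0.54 without replicate number 2. In DG-75 all 3 Ento+AZD arrays lay below all 3 DMSO arrays for 10 of the 10 genes, which held for 14% of all rows. In SU-DHL-4 this held for 7 of the 10 genes and 16% of all rows, with CHAF1A, HELLS and EZH2 as the exceptions.

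**Figure D1:**
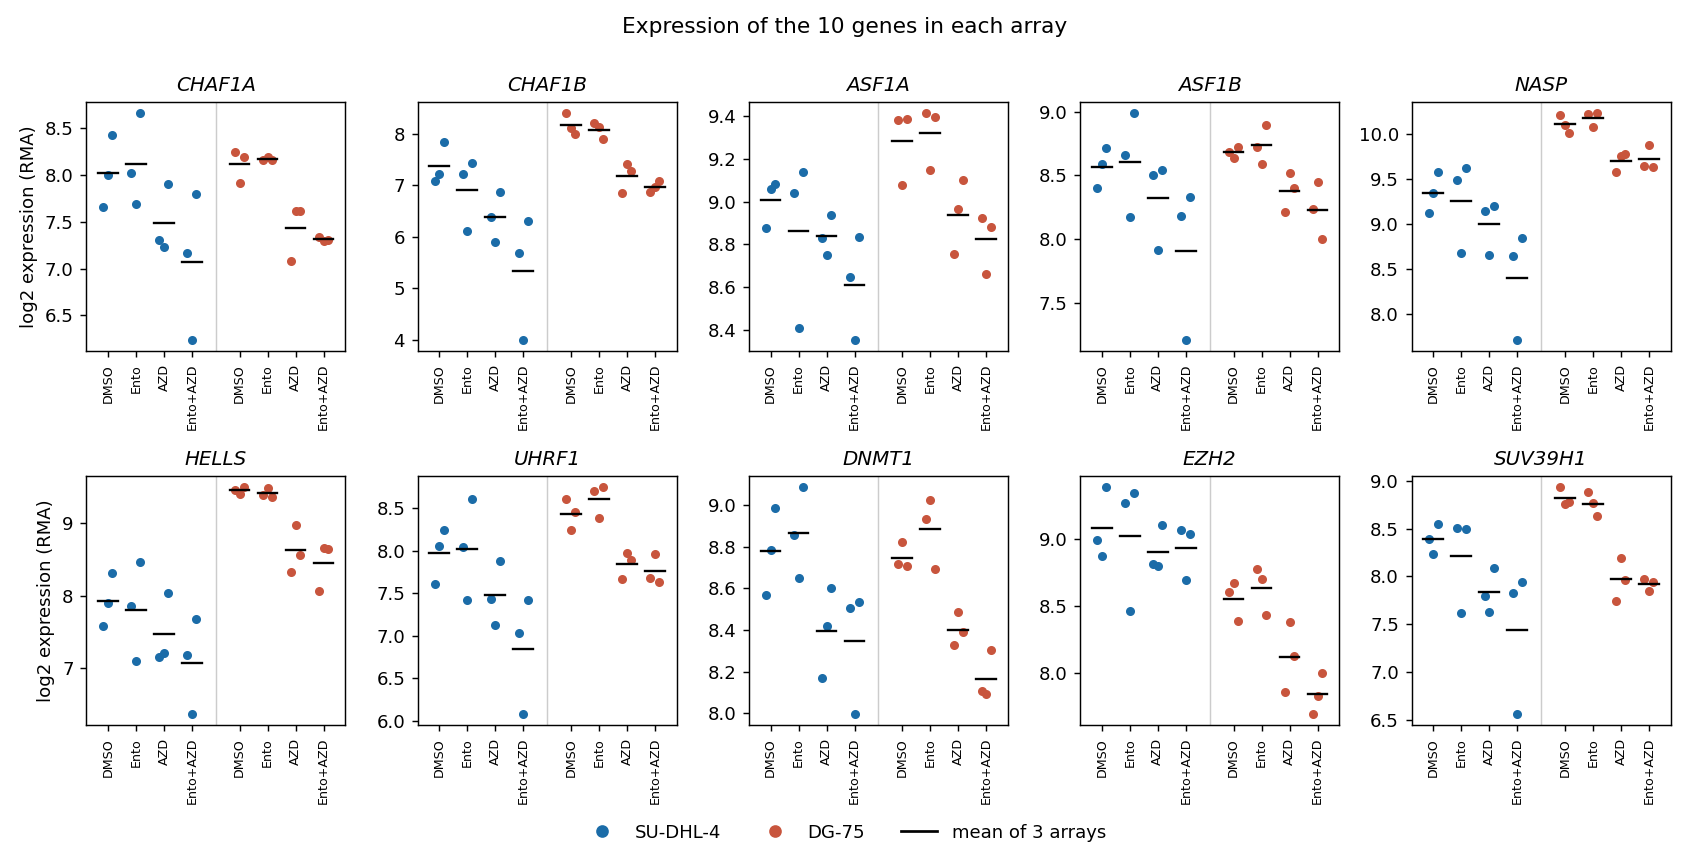
Log2 expression (vertical axis) of each of the 10 genes in every array, by treatment (horizontal axis), with SU-DHL-4 in blue, DG-75 in red and black bars for the mean of 3 arrays. CHAF1B reached 3.99 in SU-DHL-4 Ento+AZD replicate 2, while in DG-75 the Ento+AZD points of every gene lay below the DMSO points.

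Promoters were examined because the levels of the 10 genes were correlated across the arrays of a line, less closely for EZH2 in SU-DHL-4. RefSeq annotates 14 start sites for the 10 genes on build GRCh38.p14, and the 250 bases before each were searched on both strands for the E2F letters TTTGGCGC, TTTCGCGC, TTTCCCGC and TTTGCCGC, for the CCAAT box (CCAAT) and for the cell cycle homology region, CHR (TTTGAA). These motifs are known from promoters of genes expressed in S phase and mitosis. The sequences below are shown for CHAF1B, which had the largest change, for HELLS and UHRF1, which held the E2F letters, and for the paralogs ASF1B and ASF1A, which differed in their motifs. They run 5′ to 3′ on the gene's strand and end at the base before the start site, and capitals mark matches of any of these motifs on either strand.
CHAF1B, chr21:36385142-36385391, plus strand: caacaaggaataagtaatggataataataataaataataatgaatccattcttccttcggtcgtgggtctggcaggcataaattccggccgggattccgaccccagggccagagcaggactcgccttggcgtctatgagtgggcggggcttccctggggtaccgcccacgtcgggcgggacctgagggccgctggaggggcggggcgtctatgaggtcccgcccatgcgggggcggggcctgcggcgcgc
HELLS, chr10:94545538-94545787, plus strand: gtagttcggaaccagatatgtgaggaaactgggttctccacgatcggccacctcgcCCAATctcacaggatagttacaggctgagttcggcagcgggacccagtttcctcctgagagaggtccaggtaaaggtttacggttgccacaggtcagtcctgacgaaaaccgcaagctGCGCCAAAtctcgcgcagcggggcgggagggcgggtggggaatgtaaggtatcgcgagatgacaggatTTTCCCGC
UHRF1, upstream start, chr19:4909251-4909500, plus strand: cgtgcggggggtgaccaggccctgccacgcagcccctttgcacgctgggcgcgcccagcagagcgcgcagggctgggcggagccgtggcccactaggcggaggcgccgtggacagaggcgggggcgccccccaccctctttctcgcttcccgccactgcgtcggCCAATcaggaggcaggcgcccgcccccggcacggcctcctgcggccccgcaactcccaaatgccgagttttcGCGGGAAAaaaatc
UHRF1, middle start, chr19:4909894-4910143, plus strand: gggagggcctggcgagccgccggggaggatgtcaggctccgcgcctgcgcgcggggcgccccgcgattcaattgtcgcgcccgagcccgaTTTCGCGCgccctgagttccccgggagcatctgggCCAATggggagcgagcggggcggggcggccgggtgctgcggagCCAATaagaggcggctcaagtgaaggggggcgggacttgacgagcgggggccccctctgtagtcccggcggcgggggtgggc
ASF1B, chr19:14136590-14136839, minus strand: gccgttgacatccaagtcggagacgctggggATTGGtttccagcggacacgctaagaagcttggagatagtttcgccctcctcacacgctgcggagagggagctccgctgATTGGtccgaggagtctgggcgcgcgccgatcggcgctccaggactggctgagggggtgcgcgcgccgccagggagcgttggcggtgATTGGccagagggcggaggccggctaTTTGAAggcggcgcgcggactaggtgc
ASF1A, chr6:118893902-118894151, plus strand: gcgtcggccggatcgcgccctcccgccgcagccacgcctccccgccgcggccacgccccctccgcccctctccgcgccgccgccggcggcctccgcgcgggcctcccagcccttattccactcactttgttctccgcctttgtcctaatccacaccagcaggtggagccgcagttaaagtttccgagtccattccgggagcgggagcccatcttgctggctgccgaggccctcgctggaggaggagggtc

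E2F letters stood in 2 of the 10 genes: in HELLS at 76 and 8 bases before the start site, and in UHRF1 at 14 bases before the upstream start and 160 bases before the middle one. By window this was 3 of 14, against 2.79% of the 35116 RefSeq promoter windows of this length. CCAAT stood in 7 of the 10 genes and in 8 of 14 windows, against 32% of all windows. ASF1B held CCAAT on the other strand at 219, 140 and 53 bases before its start and was the only one of the 10 with the CHR letters, at 27 bases, which 13.3% of all windows hold. In CHAF1A a CCAAT match on each strand overlapped. CHAF1B, ASF1A and DNMT1 held none of these letters in the window, which says nothing about binding of the factors. The windows of the 10 genes had 5 to 41 CpG sites, and the median of all windows was 11.

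**Figure D2:**
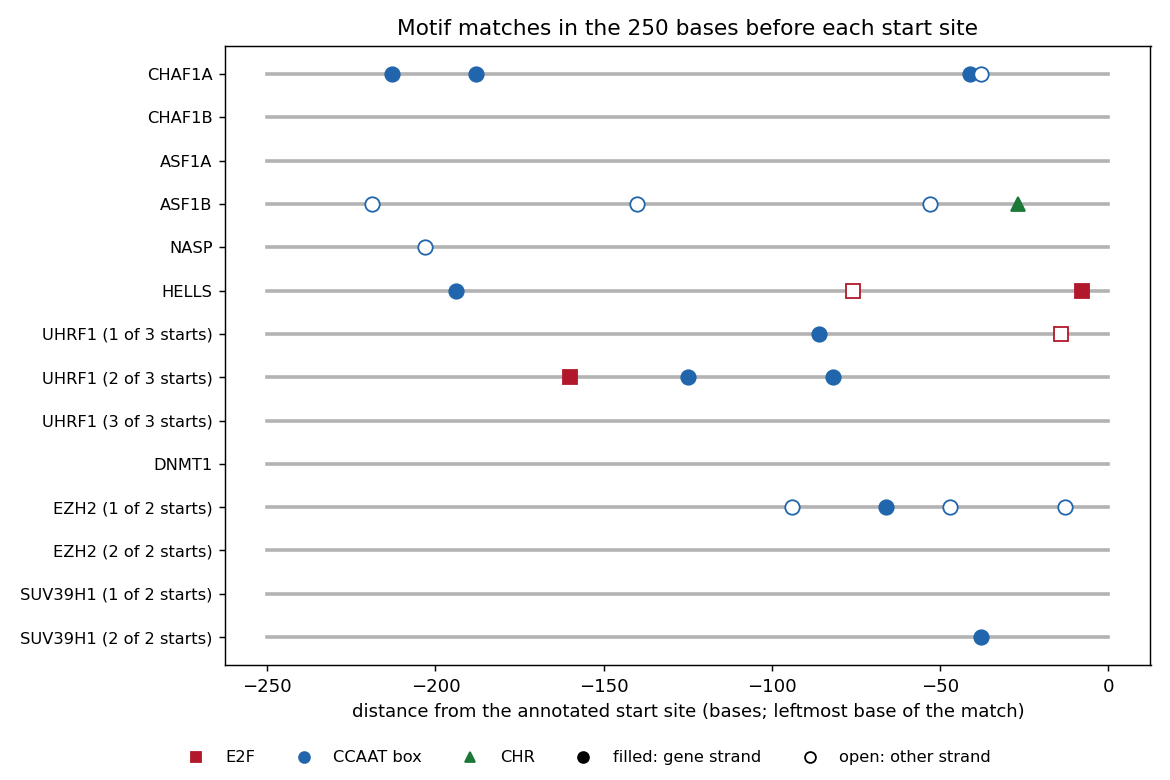
Matches of the E2F letters (squares), CCAAT box (circles) and CHR (triangle) by distance in bases from the start site (horizontal axis) in the 14 windows of the 10 genes (rows); filled symbols are on the gene strand and open ones on the other. The E2F squares stand only in HELLS and UHRF1, and the single triangle in ASF1B.

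CHAF1B, the p60 subunit of CAF-1, showed the largest change of the 10 genes in both lines. In SU-DHL-4 it was 7.07, 7.22 and 7.84 in the DMSO arrays, and 5.68, 3.99 and 6.31 in the Ento+AZD arrays. The groups did not overlap, and the drop in replicate 2 was the deepest. Its log2 change was -2.05 ± 0.29 (SE, n = 3 per group, 4.13-fold lower, limma adjusted p = 0.00567). The value of 3.99 lay below the median of all rows in that array (4.97) and within the range of the T-cell markers (1.24 to 4.72). It may be near background, so the size of the fold is uncertain. Without Ento+AZD replicate 2 the log2 change was -1.62 (limma adjusted p = 0.0346), and CHAF1B was called in 8 of 9 fits that left out an array or a replicate number, all but the fit without replicate number 3 (limma adjusted p = 0.0721). In DG-75, CHAF1B was 8.39, 8.12 and 7.98 under DMSO, and 6.86, 6.95 and 7.08 under Ento+AZD. These arrays were tightly grouped and did not overlap. The log2 change there was -1.20 ± 0.18 (SE, n = 3 per group, 2.29-fold lower, limma adjusted p = 0.0169). Of the 9 fits that left out arrays, the call held in 2, those without DMSO replicate 2 and without Ento+AZD replicate 3. Without DMSO replicates 1 or 3, Ento+AZD replicates 1 or 2, or any replicate number, the log2 change was -1.35 to -1.03 and the limma adjusted p 0.0518 to 0.312. Over both lines together CHAF1B was the only one of the 10 genes called (log2 change -1.62 ± 0.26, SE, limma adjusted p = 0.000697, 0.809% of all rows called lower), and it was called in 15 of 15 fits that left out arrays. Without the fold minimum 9 of the 10 genes passed over both lines, against 6.58% of all rows, with EZH2 as the exception (limma adjusted p = 0.0904). The count was 8 or 9 without any single array and 5, 6 and 5 without replicate numbers 1, 2 and 3.

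CHAF1A, the p150 subunit and histone-binding scaffold of CAF-1, had smaller changes than the fold minimum. In SU-DHL-4 it was 7.66, 8.0 and 8.43 under DMSO, and 7.17, 6.24 and 7.80 under Ento+AZD, so that the groups overlapped. The DG-75 arrays stood at 8.25, 7.92 and 8.19 under DMSO and at 7.34, 7.30 and 7.30 under Ento+AZD, without overlap. Its log2 change was -0.96 in SU-DHL-4 (limma adjusted p = 0.0349) and -0.80 in DG-75 (limma adjusted p = 0.0334), below the adjusted p threshold in both but short of the fold minimum. Without SU-DHL-4 Ento+AZD replicate 2 the log2 change there was -0.66 (limma adjusted p = 0.16), and the threshold was passed in 1 of 9 fits that left out arrays in SU-DHL-4 and in 0 of 9 in DG-75. RBBP4, the CAF-1 subunit that also serves other chromatin complexes, had log2 changes of -0.05 and -0.17, neither past the test (limma adjusted p = 0.935 and 0.542).

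**Figure D3:**
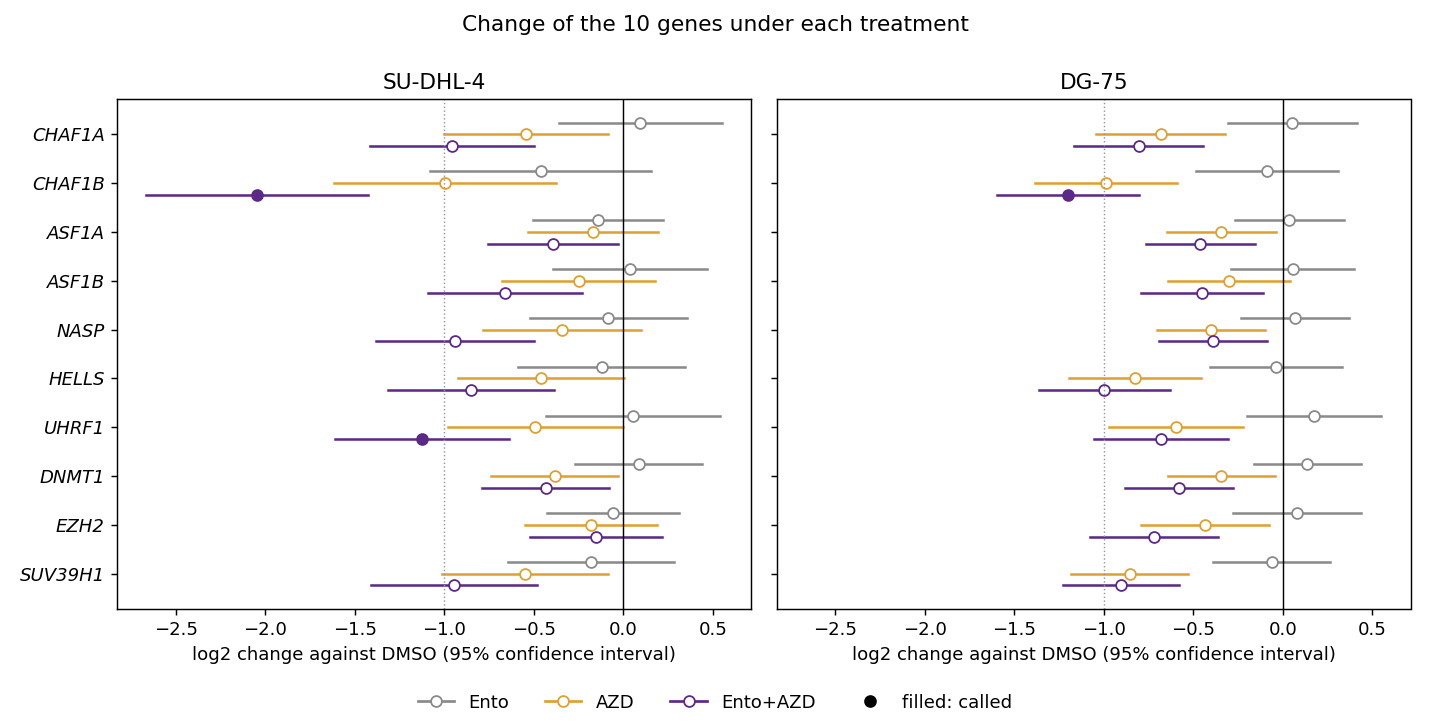
Log2 change against DMSO (horizontal axis, with 95% confidence intervals from limma) of the 10 genes (rows) under Ento (grey), AZD (orange) and Ento+AZD (purple) in SU-DHL-4 (left) and DG-75 (right); filled symbols were called, and the dotted line marks the fold minimum of -1. The filled symbols are CHAF1B in both lines and UHRF1 in SU-DHL-4, all under Ento+AZD.

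Among the histone carriers, NASP passed the adjusted p threshold in SU-DHL-4 without reaching the fold minimum. In that line NASP was 9.12, 9.34 and 9.57 under DMSO, and 8.64, 7.71 and 8.85 under Ento+AZD (log2 change -0.94, limma adjusted p = 0.0324). Without Ento+AZD replicate 2 it was -0.75 (limma adjusted p = 0.175), and 1 of 9 fits that left out arrays passed. The NASP groups did not overlap in either line, although the DG-75 log2 change was -0.39 and did not pass the test (limma adjusted p = 0.184). The ASF1 paralogs had log2 changes between -0.66 and -0.39 in the lines, with limma adjusted p-values of 0.118 to 0.311. ASF1B, whose expression follows proliferation, was 8.40, 8.59 and 8.71 under DMSO in SU-DHL-4, and 8.18, 7.21 and 8.33 under Ento+AZD. ASF1A, expressed also outside the cell cycle, was 8.88, 9.06 and 9.08 under DMSO and 8.65, 8.35 and 8.84 under Ento+AZD. For both paralogs the Ento+AZD arrays lay below the DMSO arrays in each line, and over both lines ASF1A (-0.43), ASF1B (-0.56) and NASP (-0.67) had limma adjusted p-values of 0.0114, 0.0211 and 0.0117. ASF1B passed over both lines in 9 of 15 fits that left out arrays, and without SU-DHL-4 Ento+AZD replicate 2 its limma adjusted p was 0.0674.

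Of 22 other histone chaperones measured, 2 were called lower in SU-DHL-4, where 1.09% of all rows were called lower, and 1 in DG-75, where 0.708% were. The medians of the list were -0.22 and -0.26. HIRA was not analysed here. The called genes in SU-DHL-4 were HJURP (log2 change -1.61), which loads the centromeric histone CENP-A, and ANP32E (-1.21), which removes H2A.Z. Without Ento+AZD replicate 2, HJURP was called (-1.37, limma adjusted p = 0.0474) and ANP32E was not (-1.08, limma adjusted p = 0.0764). Without the replicate number in the fit neither was called (limma adjusted p = 0.168 and 0.129). In DG-75 it was MMS22L (-1.17), which with TONSL acts at stalled replication forks, and it passed the adjusted p threshold in 1 of 9 fits that left out arrays. SUPT16H and SSRP1, the subunits of FACT, had log2 changes of -0.26 and -0.73 in SU-DHL-4 and of -0.34 and -0.56 in DG-75, with none called.

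UHRF1, the reader of hemimethylated DNA, was the other gene called in SU-DHL-4. Its values there were 7.61, 8.06 and 8.25 under DMSO, and 7.04, 6.08 and 7.42 under Ento+AZD, and the groups did not overlap. The log2 change was -1.13 ± 0.22 (SE, n = 3 per group, 2.18-fold lower, limma adjusted p = 0.0226). The call depended on single arrays: it held in 3 of 9 fits that left out arrays, in which DMSO replicate 1, Ento+AZD replicate 1 or all arrays of number 1 were omitted. Without Ento+AZD replicate 2 the log2 change was -0.89 (limma adjusted p = 0.135). Without DMSO replicate 2, DMSO replicate 3 or Ento+AZD replicate 3 the limma adjusted p was 0.117, 0.0589 and 0.0689, and without replicate numbers 2 and 3 the limma adjusted p was 0.153 and 0.151. With array medians subtracted its log2 change was -1.0, short of the fold minimum. In DG-75, UHRF1 stood at 8.61, 8.24 and 8.46 under DMSO and at 7.68, 7.96 and 7.63 under Ento+AZD. These groups did not overlap either, but the log2 change of -0.68 did not pass the test (limma adjusted p = 0.0638). That outcome depended on the replicate number, without which the limma adjusted p was 0.0413.

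DNMT1, the maintenance methyltransferase that UHRF1 recruits, had the smaller change of the pair in both lines. In SU-DHL-4 it was 8.57, 8.78 and 8.98 under DMSO and 8.51, 8.0 and 8.53 under Ento+AZD (log2 change -0.43, limma adjusted p = 0.243). In DG-75 it was 8.71, 8.82 and 8.71 under DMSO and 8.11, 8.09 and 8.30 under Ento+AZD (log2 change -0.58, limma adjusted p = 0.0516). Without the replicate number in the DG-75 fit the limma adjusted p of DNMT1 was 0.0384. The DNMT1 groups did not overlap in either line, with a gap of 0.04 between the nearest SU-DHL-4 arrays. Over both lines DNMT1 had a log2 change of -0.51 (limma adjusted p = 0.00482) and UHRF1 one of -0.90 (limma adjusted p = 0.00266).

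HELLS, the remodeller needed for methylation of repeats, came closest to the fold minimum without passing it. In DG-75 it was 9.45, 9.41 and 9.49 under DMSO, and 8.06, 8.65 and 8.64 under Ento+AZD. The DMSO arrays differed little from each other, and the Ento+AZD arrays lay clearly apart from them (log2 change -0.998, just short of the fold minimum, limma adjusted p = 0.0214). The threshold was passed in 2 of 9 DG-75 fits that left out arrays. In SU-DHL-4, HELLS was 7.58, 7.89 and 8.31 under DMSO and 7.18, 6.37 and 7.68 under Ento+AZD, where 1 treated array overlapped the controls (log2 change -0.85, limma adjusted p = 0.0609).

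Of 17 other genes of DNA methylation, 2 were called lower in SU-DHL-4 arrays and 1 in DG-75 arrays, against 1.09% and 0.708% of all rows, with list medians of -0.30 and -0.35. PCLAF, a PCNA-binding protein that helps to recruit DNMT1 during replication, was called in both lines (log2 change -1.56 and -1.06, limma adjusted p = 0.0349 and 0.0378). CDCA7, the partner of HELLS, was called in SU-DHL-4 (-1.28) and not in DG-75 (-0.41, limma adjusted p = 0.185). Without SU-DHL-4 Ento+AZD replicate 2 neither was called in SU-DHL-4 (PCLAF -1.15, limma adjusted p = 0.179, CDCA7 -1.19, limma adjusted p = 0.0725), and in DG-75 PCLAF passed in 0 of 9 fits that left out arrays. Without the replicate number in the SU-DHL-4 fit, PCLAF and CDCA7 had limma adjusted p-values of 0.358 and 0.225. The de novo methyltransferases DNMT3A and DNMT3B were not called, with log2 changes of -0.69 and -0.86 in SU-DHL-4 and of -0.24 and -0.61 in DG-75. The TET demethylation enzymes were not called in either line.

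Of the histone methyltransferases, SUV39H1 passed the adjusted p threshold in both lines and EZH2 in DG-75, neither with the fold minimum. The responses of the lines were not shown to differ for either gene. SUV39H1 was 8.39, 8.23 and 8.55 under DMSO in SU-DHL-4, and 7.83, 6.56 and 7.94 under Ento+AZD. The DG-75 arrays read 8.93, 8.76 and 8.78 under DMSO and 7.97, 7.85 and 7.94 under Ento+AZD. The groups were separate in both lines, with log2 changes of -0.95 (limma adjusted p = 0.0394) and -0.91 (limma adjusted p = 0.021). Without SU-DHL-4 Ento+AZD replicate 2 the SU-DHL-4 log2 change was -0.67 (limma adjusted p = 0.185), and the threshold was passed in 0 of 9 fits that left out arrays there and in 1 of 9 in DG-75. EZH2 in SU-DHL-4 was 8.99, 8.88 and 9.39 under DMSO, and 9.07, 8.69 and 9.04 under Ento+AZD, with overlapping groups and a log2 change of -0.15 (95% confidence interval -0.52 to 0.21, limma adjusted p = 0.768). In DG-75, EZH2 was 8.60, 8.67 and 8.39 under DMSO and 7.69, 7.82 and 7.99 under Ento+AZD. There the groups were separate (log2 change -0.72, limma adjusted p = 0.0466), and 1 of 9 fits that left out arrays passed.

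None of 10 other genes of H3K27 methylation and none of 14 other genes of H3K9 methylation was called in either line by limma. At an unadjusted p under 0.05 the H3K27 list had 1 gene for SU-DHL-4 and 4 for DG-75, and the H3K9 list had 3 and 4, where 14% of all SU-DHL-4 rows and 16% of DG-75 rows had such a p in either direction. The PRC2 core subunits EED and SUZ12 had log2 changes of -0.23 and -0.29 in SU-DHL-4 and of -0.98 and -0.45 in DG-75, with limma adjusted p-values of 0.15 to 0.706. PHF19, an accessory PRC2 subunit, had -0.99 and -0.92, the latter at a limma adjusted p of 0.0188. SETDB1 and EHMT2, other H3K9 methyltransferases, had log2 changes between -0.29 and -0.11.

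**Figure D4:**
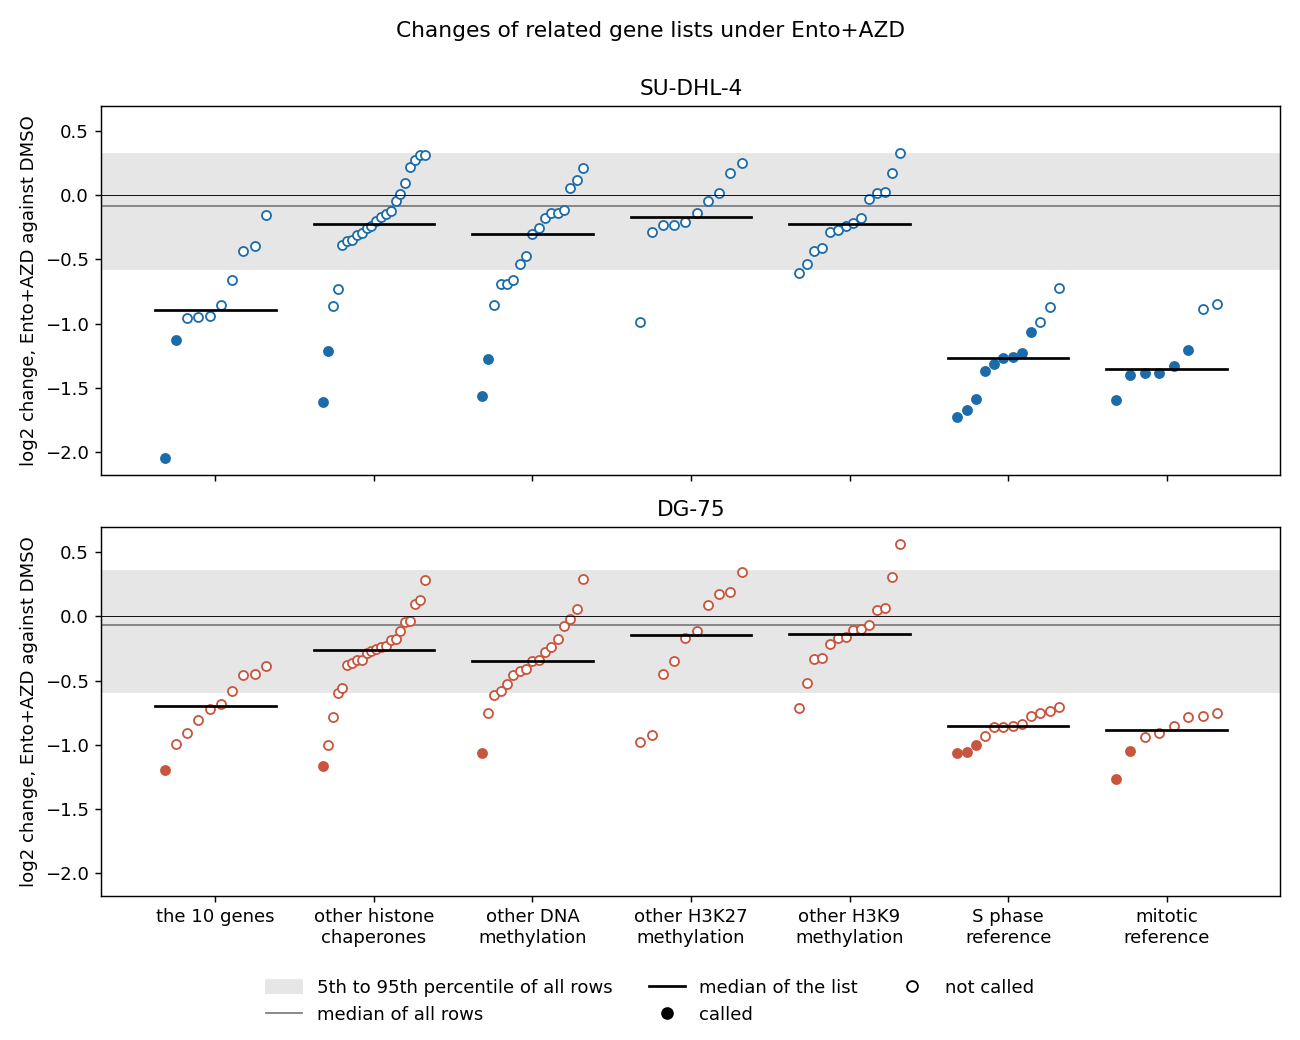
Log2 change under Ento+AZD against DMSO (vertical axis) for the 10 genes and 6 related lists (horizontal axis), ordered by size within a list, in SU-DHL-4 (top) and DG-75 (bottom); filled points were called, black bars are list medians and the grey band spans the 5th to 95th percentile of all rows. The 10 genes had medians of -0.90 and -0.70, the S phase genes of -1.27 and -0.86, the mitotic genes of -1.36 and -0.88, and the 4 lists of other chromatin genes between -0.35 and -0.14.

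Under the single agents none of the 10 genes was called. These comparisons share the DMSO arrays with those above, so their values stand side by side and are not independent. Under AZD none of the 10 genes was called by limma in SU-DHL-4 (0.18% of all rows called lower) or in DG-75 (0.164%), and the medians were -0.42 and -0.52. The SU-DHL-4 median was -0.18 without DMSO replicate 2. At an unadjusted p under 0.05 there were 5 genes for SU-DHL-4 and 9 for DG-75, and 9.6% and 11.3% of all rows were lower at that p. CHAF1B under AZD was 6.38, 5.89 and 6.87 in SU-DHL-4, and 6.84, 7.41 and 7.28 in DG-75. All of these arrays lay below the DMSO arrays of their line, with log2 changes of -1.0 (limma adjusted p = 0.203) and -0.99 (limma adjusted p = 0.056). SUV39H1 passed the adjusted p threshold in DG-75 (log2 change -0.86, limma adjusted p = 0.0495), short of the fold minimum, as the only one of the 10 where 0.254% of all rows passed lower. AZD arrays lay below all DMSO arrays for 9 of the 10 genes in DG-75 (14.6% of all rows) and for 2 of the 10, CHAF1B and SUV39H1, in SU-DHL-4 (12.9% of all rows). Over both lines AZD gave 0 called genes by limma (0.246% of all rows called lower) and 8 genes at an unadjusted p under 0.05 (15.2% of rows). CHAF1B (-0.99), SUV39H1 (-0.70) and CHAF1A (-0.61) passed the adjusted p threshold there (limma adjusted p = 0.034, 0.0215 and 0.0404), with 3.26% of all rows passing lower.

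Ento alone gave 0 called genes by limma in SU-DHL-4 (0.0117% of all rows called lower), in DG-75 (0% of rows) and over both lines (0% of rows). Of the 10 genes, 0 had an unadjusted p under 0.05 in these fits, a level passed by 8.59%, 2.81% and 5.93% of all rows. The medians were -0.07 for SU-DHL-4 and 0.05 for DG-75, and the Ento and DMSO arrays overlapped for every one of the 10 genes, while 13.4% of rows for SU-DHL-4 and 6.65% for DG-75 did not overlap. The SU-DHL-4 median was 0.16 without DMSO replicate 2 and 0.20 without replicate number 2. CHAF1B under Ento read 7.21, 6.11 and 7.42 in SU-DHL-4, with replicate 2 well below the others, and 8.21, 8.14 and 7.89 in DG-75. The widest interval of the 20 was that of CHAF1B in SU-DHL-4, with a log2 change of -0.46 and a 95% confidence interval of -1.08 to 0.16.

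The combination was also set against each single agent. In DG-75, CHAF1B was lower under Ento+AZD than under Ento (log2 change -1.11, limma adjusted p = 0.0211, 0.598% of all rows called lower), and 7 of the 10 genes passed the adjusted p threshold (1.44% of rows passing lower), with a median of -0.82. That call of CHAF1B held in 2 of 9 fits that left out arrays, those without Ento replicate 3 and without Ento+AZD replicate 3. After quantile normalization the log2 change was -0.98, short of the fold minimum, and with only the 6 arrays of these groups the limma adjusted p was 0.159. In SU-DHL-4 the same contrast called 0 of the 10 genes by limma (0.0704% of all rows called lower), and 8 had an unadjusted p under 0.05 (6.65% of rows). The median there was -0.75, and -0.52 without Ento+AZD replicate 2. CHAF1B stood at -1.58, UHRF1 at -1.18 and CHAF1A at -1.05 (limma adjusted p = 0.0749, 0.0749 and 0.0789), and 3 of the 10 genes were called there with a variance prior that follows expression. Against AZD, limma called 0 of the 10 genes in SU-DHL-4 (0.00391% of all rows called lower) and 0 in DG-75 (0% of rows). At an unadjusted p under 0.05 there were 3 in SU-DHL-4 (3.63% of rows lower) and 0 in DG-75 (2.02% of rows). The SU-DHL-4 median was -0.40, and -0.19 without Ento+AZD replicate 2. CHAF1B had a log2 change of -1.05 in SU-DHL-4 (95% confidence interval -1.67 to -0.43, limma adjusted p = 0.5). Additivity was tested as the log2 change under the combination less the changes under Ento and under AZD. By limma, 0 of the 10 genes were called in SU-DHL-4 (0% of all rows called; 0 genes and 4.99% of rows at an unadjusted p under 0.05). DG-75 likewise had 0 calls (0% of rows; 0 genes and 2.63% of rows at an unadjusted p under 0.05).

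The response to Ento+AZD was not shown to differ between the lines for any of the 10 genes. The difference of the log2 changes, SU-DHL-4 minus DG-75, was -0.85 for CHAF1B (limma adjusted p = 0.71), 0.57 for EZH2 (limma adjusted p = 0.679) and -0.55 for NASP (limma adjusted p = 0.737). These were the 3 genes with an unadjusted p under 0.05 (6.51% of rows), and of all rows 0.0352% were called in either direction. The 95% confidence intervals were wide, from -1.62 to -0.08 for CHAF1B and from 0.08 to 1.05 for EZH2. Without SU-DHL-4 Ento+AZD replicate 2 the median of the 10 differences moved from -0.10 to 0.13. For Ento alone 0 of the 10 differences were called by limma (0.00782% of rows) and 0 had an unadjusted p under 0.05 (4.43% of rows). The same counts were 0 (0% of rows) and 0 (6.16% of rows) for AZD alone.

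Under DMSO the lines differed in HELLS. Its log2 expression was 7.93 ± 0.37 (SD, n = 3) in SU-DHL-4 and 9.45 ± 0.04 (SD, n = 3) in DG-75, a log2 difference of -1.52 ± 0.32 (SE, 2.87-fold lower in SU-DHL-4, limma adjusted p = 0.0011). It was the only one of the 10 genes called, and 4.11% of all rows were called lower in SU-DHL-4. The call was lost without replicate number 1 (log2 difference -1.34, limma adjusted p = 0.0766). NASP was lower in SU-DHL-4 short of the fold minimum (-0.76, limma adjusted p = 0.0297). EZH2 was 0.53 higher there on the log2 scale, which did not pass the test (limma adjusted p = 0.0782), and the other 7 genes differed by -0.79 to 0.03 with adjusted p-values of 0.211 to 0.934.

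Paralogs of the 10 genes were used to ask whether a gene and its relative changed unequally in the same arrays. The difference of the log2 values of a pair was taken within each array. It was compared between Ento+AZD and DMSO by an exact two-sided permutation test within lines. The test had 400 arrangements, a smallest possible p of 0.005 and adjustment over the 4 pairs. Unlike the limma fits of treatment, it did not use the replicate number. UHRF1 changed more than UHRF2, a paralog that does not stand in for it in maintenance methylation: the mean log2 change over both lines was -0.90 for UHRF1 and 0.02 for UHRF2, a difference of -0.93 (exact p = 0.005, adjusted p = 0.02). The within-array difference of this pair was -0.75, -0.36 and -0.59 under DMSO and -1.63, -2.73 and -1.08 under Ento+AZD in SU-DHL-4. In DG-75 it was -0.63, -1.40 and -0.69 under DMSO and -1.56, -1.48 and -1.49 under Ento+AZD. Treated arrays lay below the controls in each line, narrowly so in DG-75.

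EZH2 fell relative to EZH1, the paralog more prominent in resting cells. Their mean log2 changes were -0.44 and 0.17, a difference of -0.61 (exact p = 0.02, adjusted p = 0.04). EZH2 alone did not pass the adjusted p threshold over both lines by limma. The log2 changes of EZH2 and EZH1 were -0.15 and 0.17 in SU-DHL-4, and -0.72 and 0.17 in DG-75. In DG-75 the within-array difference of this pair was 1.89, 1.55 and 1.54 under DMSO and 0.69, 1.02 and 0.60 under Ento+AZD. The SU-DHL-4 arrays overlapped, at 2.24, 1.54 and 1.86 under DMSO and 1.67, 1.27 and 1.73 under Ento+AZD. SUV39H1 and SUV39H2 differed by -0.35 (exact p = 0.055, adjusted p = 0.073) and ASF1B and ASF1A by -0.13 (exact p = 0.435), neither past the threshold. With 12 arrays single omissions mattered: for UHRF1 the adjusted p from the exact test was 0.07, 0.05 and 0.05 without SU-DHL-4 DMSO replicates 1, 2 and 3. For EZH2 it was 0.05 to 0.07 without SU-DHL-4 DMSO replicate 1 or 3, SU-DHL-4 Ento+AZD replicate 2, or any DG-75 DMSO array.

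**Figure D5:**
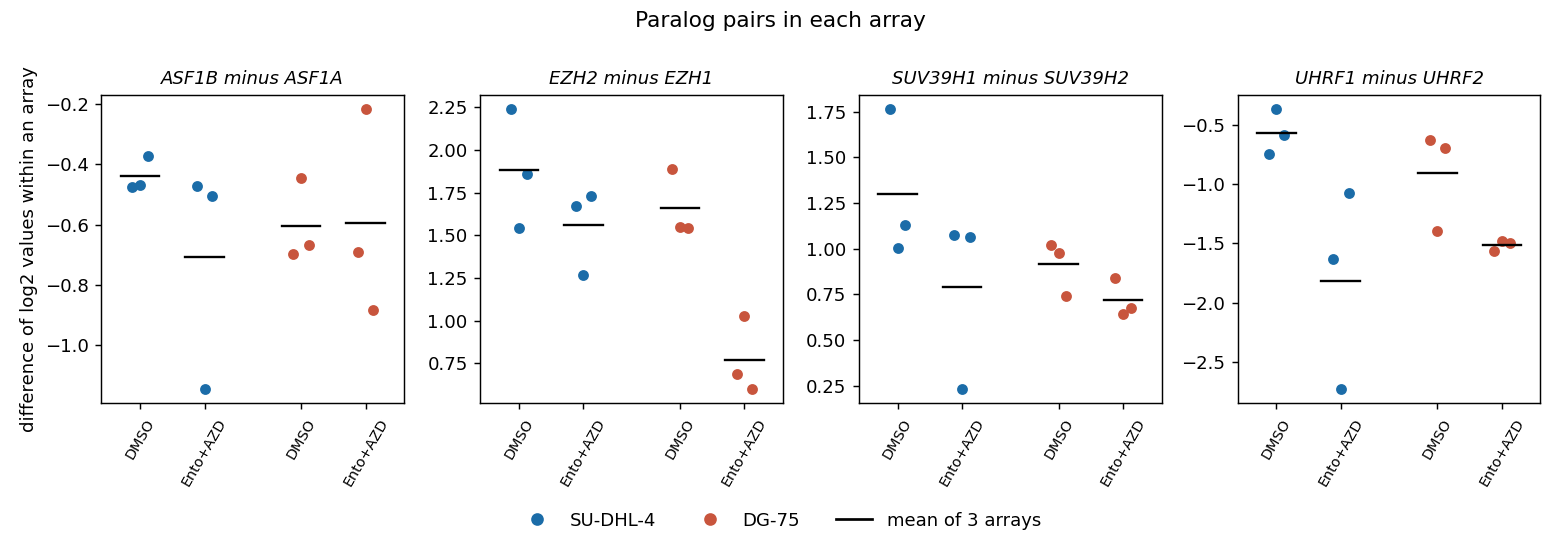
Difference of the log2 values of 4 paralog pairs within each array (vertical axis) under DMSO and Ento+AZD (horizontal axis), with SU-DHL-4 in blue, DG-75 in red and black bars for the mean of 3 arrays. UHRF1 minus UHRF2 was lower under Ento+AZD in both lines, and the SU-DHL-4 replicate at -2.73 is the lowest point.

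Genes of S phase and mitosis moved in the same arrays. In SU-DHL-4, where 1.09% of all rows were called lower under Ento+AZD, 9 of 12 S phase reference genes were called lower (PCNA, MCM4, MCM6, MCM7, RRM2, TYMS, CDC6, CCNE2 and GINS2, with a list median of -1.27) and 6 of 8 mitotic ones (TOP2A, MKI67, CDK1, PLK1, AURKA and CENPF, with a list median of -1.36). Without Ento+AZD replicate 2 the counts were 1 (GINS2) and 0, and the log2 changes of these genes were -1.52 to -0.78. Without the replicate number in the fit 0 of these 15 genes passed (limma adjusted p = 0.142 to 0.337). In DG-75, where 0.708% of all rows were called lower, the counts were 3 of 12 (MCM4, MCM6 and GINS2; median -0.86) and 2 of 8 (CDK1 and AURKA; median -0.88). Over the 9 fits that left out arrays, the S phase count ranged from 0 to 10 in SU-DHL-4 and from 0 to 3 in DG-75, and the mitotic count from 0 to 6 and from 0 to 3. The mean of the S phase genes lay between 8.67 and 9.33 under DMSO and between 6.79 and 8.36 under Ento+AZD in SU-DHL-4, and between 9.43 and 9.65 and between 8.47 and 8.81 in DG-75. The part of these genes in the results for CHAF1B, UHRF1 and the others was not tested. In a bulk extract, fewer cells in S phase and less RNA of a gene per cell cannot be told apart.

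Across the 12 arrays of a line the chromatin assembly genes followed each other. With the mean of each replicate number subtracted, the correlation of a gene with the mean of the other 9 was 0.86 to 0.98 in SU-DHL-4, apart from EZH2 at 0.51, and 0.86 to 0.98 in DG-75, where EZH2 stood at 0.94. The rows whose pattern was most like the mean of the 10 genes, by the smaller of the correlations in the lines over 12 arrays each and with the mean of each replicate number subtracted, were GINS1 (0.99), CDC45 (0.99), CHEK1 (0.99), LMNB1 (0.98) and MCM3 (0.98). GINS1, CDC45 and MCM3 belong to the replicative helicase, CHEK1 is a checkpoint kinase and LMNB1 is a lamin of the nuclear envelope. These correlations are descriptions: the arrays share treatments and replicate numbers, and SU-DHL-4 Ento+AZD replicate 2 was the lowest of the 12 arrays of its line for 9 of the 10 genes, all but EZH2.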

How the data were processed

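The 24 Clariom D Human arrays fall into 8 groups of 3 by line and treatment, as the labels give them. The deposited table holds log2 values that the authors made by RMA, with probes mapped to genes by affycoretools; tool versions and the genome build are not given in the sources used here. RMA equalizes intensity distributions between arrays, so a shift shared by most genes would be reduced. The precision is limited by 3 arrays per group. The study's methods describe statistical data in general as coming from 3 or more biologically independent samples, and the labels do not say whether the arrays of a group came from separate cultures. If they did not, p-values measure only the spread between these arrays, which may be technical.

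All 25575 rows were fitted with limma 3.58.1 in R 4.3.3. The fit of a single line had terms for treatment and replicate number, which stands in for the batch term of the study's methods; the fit over both lines had treatment, line and replicate number, the line contrast of responses had replicate number within line, and the DMSO contrast between lines had the 8 groups only. Benjamini-Hochberg adjustment ran over all rows, and calls needed an adjusted p below 0.05 and an absolute log2 change above 1. Paralog differences were tested by an exact permutation test within lines, without the replicate number. The fits were tested on simulated data.

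The 10 genes and the related lists were chosen with earlier results of these data known. Text names all 10, the called genes of the lists, the partners and paralogs of the 10 and the 5 rows of most similar pattern. Alternatives were no replicate number, a fit of all 24 arrays, only the 6 arrays compared, rows under the median left out, quantile normalization, array medians subtracted, a trended robust prior, no fold minimum, the lowest row of a symbol, and omission of arrays and of replicate numbers.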

Additional observations from a re-analysis of the deposited data

How the results depend on the processing

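In most contrasts 0 of the 10 genes were called, so that an unchanged count there says little about stability. In SU-DHL-4 Ento+AZD against DMSO, 2 genes were called; without the replicate block it was 0 (CHAF1B adjusted p = 0.0995, UHRF1 adjusted p = 0.187, limma), with array medians subtracted 1, without the fold minimum 5, and with arrays or replicate numbers left out 0 to 4. Quantile normalization and subtraction of medians moved the median of the 10 genes from -0.90 to -0.77 there. The SU-DHL-4 count for Ento+AZD against Ento rose from 0 to 3 in the fit of all 24 arrays, with low rows left out and with the trended robust prior. Without the fold minimum the counts were 1 for AZD in DG-75, 5 for Ento+AZD against DMSO in DG-75, 7 in DG-75 for Ento+AZD against Ento, 3 for AZD over both lines, 9 for Ento+AZD over both lines and 2 for the lines under DMSO. In DG-75 the call for Ento+AZD against Ento fell to 0 with only the 6 arrays of these groups and with quantile normalization. Leaving out arrays or replicate numbers gave 0 to 2 calls for Ento+AZD in DG-75 against DMSO and against Ento, 0 to 1 for AZD over both lines, 1 to 3 for Ento+AZD over both lines and 0 to 1 for the lines under DMSO; the last fell to 0 only without replicate 1. The causes of these shifts were not tested, and the fits with omissions also had fewer arrays.

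For the paralog pairs, a line alone cannot go below an exact p of 0.1. UHRF1 minus UHRF2 was -1.24 for SU-DHL-4 and -0.61 for DG-75 alone, and -1.11 to -0.70 with arrays left out. EZH2 minus EZH1 was -0.32 and -0.89 in the lines alone, and -0.69 to -0.52 with arrays left out. ASF1B minus ASF1A reversed to 0.0082 in DG-75 alone. SUV39H1 minus SUV39H2 was -0.36 after quantile normalization, with an adjusted p of 0.0467 from the exact permutation test.

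The labels do not say what the replicate numbers share. Deviations of same-numbered arrays from their group means had a median correlation of 0.15 in SU-DHL-4, with 12 of 18 pairs over 0.1. For arrays of different numbers the median was -0.07, with 1 of 36 over 0.1. In DG-75 the same medians were 0.04, with 7 of 18 over 0.1, and -0.01, with 11 of 36. Deviations within a group cancel out, so the values for different numbers tend to mirror those for the same number. They are not separate evidence for pairing. Arrays of a number tended to deviate together in SU-DHL-4, though not in every pair, and whether they were paired was not tested. The term was kept in the fits because the study's methods have a batch term, and the SU-DHL-4 calls rest on it. Of the 24 arrays, 17 correlated best with their own number. In DG-75 the replicate block changed no count of called genes among the 10. Low values could not be set against background, as the table has no detection value.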

Other observations

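Other genes of DNA methylation differed between the untreated lines. Under DMSO, DNMT3B, a de novo methyltransferase, had a log2 difference of -2.67, SU-DHL-4 minus DG-75 (limma adjusted p = 1.95e-06). TET2 (-2.06), TET1 (-1.74), USP7 (-1.50) and CDCA7 (-1.19) were also called lower in SU-DHL-4, where 4.11% of all rows were called lower. TET1 and TET2 oxidise methylated cytosine, USP7 is a deubiquitinase that binds UHRF1 and DNMT1, and CDCA7 works with HELLS, the gene of the 10 that was called lower in the same contrast. DNMT1 itself had a log2 difference of 0.03 (95% confidence interval -0.30 to 0.37, limma adjusted p = 0.934).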
